A study of Mus musculus with 6 samples.

Results

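The receptors described here hold haematopoietic stem cells (HSCs) in the bone marrow or let them leave it and return. They were taken as the genes of the deposited count table whose Ensembl identifiers carry the symbols Neo1, Robo4, Cxcr4, S1pr1, Adgrg1, Selplg, Cd44 and Cdh2. All 8 were found among the 16312 genes of the table, and all 8 passed the filter on low counts and stood among the 14288 genes tested. The study sequenced RNA of HSCs sorted by flow cytometry from the marrow of male C57BL/6N mice. The old group held 3 mice aged 22 months and the young group 3 mice aged 8 to 12 weeks, and the labels call both B6 controls of a parabiosis study and give no allele or treatment for either. The series design describes the samples of an age as biological replicates. Sort markers, cell numbers and any pooling of marrow between mice were not stated in the labels.

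HSCs sit beside vessel walls and stromal cells that secrete the chemokine CXCL12, and its receptor Cxcr4 keeps them there. Other receptors add adhesion: Cd44 to hyaluronan, Selplg to selectins, Cdh2 to cadherins of neighbouring cells. The guidance receptors Robo4 and Neo1, known from axons and vessels, also act in HSCs of mice, Robo4 in anchoring them to the marrow and Neo1 in keeping them quiescent when it binds netrin-1. S1pr1 works toward exit, since it draws cells to the high sphingosine-1-phosphate of blood and lymph.

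Neo1 and S1pr1 were higher in HSCs of old mice, by 3.87-fold and 2.02-fold, and the other 6 receptors did not pass the test. Thus 2 of 8 members were called higher and none lower, at an adjusted p under 0.05 of edgeR's quasi-likelihood test over all genes. Of all genes tested 3.99% were called, 2.45% as higher in old mice (350 genes) and 1.54% as lower (220 genes). Scaled only by library size, the calls were 310 higher and 298 lower. The median log2 fold change was 0.07 over the 8 members and −0.02 over all genes tested. The 3 old and 3 young libraries did not overlap for the same pair of members, Neo1 and S1pr1, and for 22.4% of all genes tested. Levels are given as CPM, in which counts are scaled to a common library size after TMM normalisation, and fold changes divide old by young, with a standard error (SE).

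**Figure D1:**
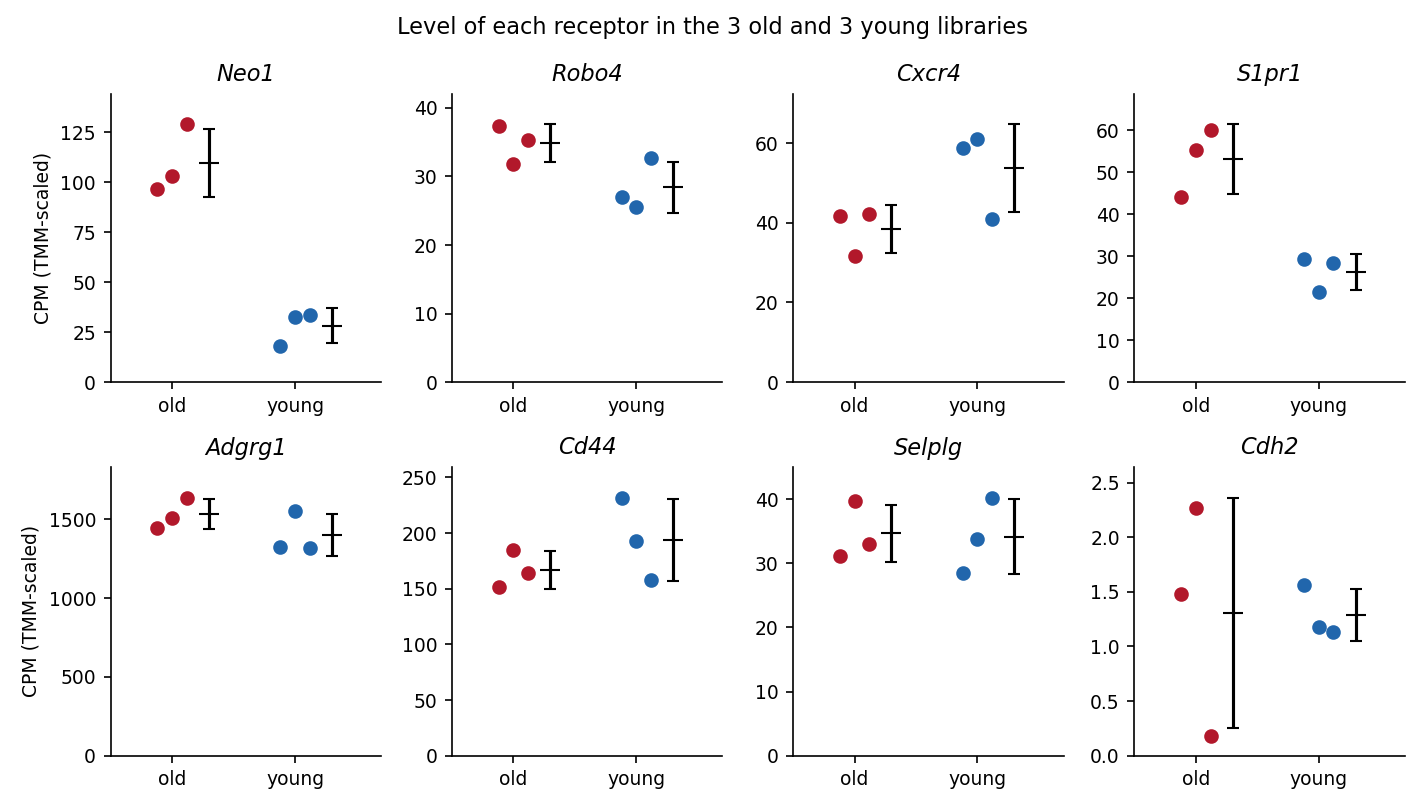
CPM (linear axis) of each of the 8 receptors in the 3 old (left, red) and 3 young (right, blue) libraries, 1 point per library, with the mean and SD beside the points. Neo1 and S1pr1 had all old libraries above all young ones, and the groups of the other 6 overlapped.

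Library totals ran from 12494557 counts in old replicate 2 to 30931680 in young replicate 3, which limits old replicate 2 most for weakly expressed genes. The HSC label was checked against 15 markers, all of which were measured in both groups, with Kit at 876 ± 44.6 CPM in old and 882 ± 52.4 CPM in young mice (SD, n = 3 each). Of these markers, Procr and Slamf1 rose and the rest did not pass. Markers of other blood cells differed between the ages in several lists. The 10 of 11 neutrophil markers with values summed to 19.9 to 23.5 CPM in old and 27.0 to 254 CPM in young libraries, with 4 of 6 tested called lower. Of these 4 calls, 1 was kept without young replicate 1 and 1 without old replicate 3, and none was kept without old replicate 1, without old replicate 2 or with limma-voom. The 15 of 16 monocyte and macrophage markers with values summed to 180 to 209 CPM in old and 180 to 216 CPM in young libraries, most of it from Lyz2. Of these, 7 of 13 tested fell, of which 3 kept their call without old replicate 3 and 4 without old replicate 1, and Adgre1, C1qb, Cd5l and Fcna were at 0 in all old libraries. Erythroid markers summed to 727 to 891 CPM in old and 800 to 1154 CPM in young libraries, most of it from Car2, and Car1, Klf1 and Ermap fell among 9 tested, although none of these 3 passed with limma-voom. T and NK cell markers summed to 70.7 to 86.4 CPM in old and 17.4 to 34.0 CPM in young libraries, where 1 of 6 tested rose, Klrb1c. That gene alone averaged 66.7 ± 10.2 CPM in old and 8.08 ± 3.87 CPM in young mice (SD, n = 3). B and plasma cell markers summed to 18.4 to 22.1 CPM in old and 20.2 to 22.6 CPM in young libraries, with none of 4 called. Endothelial markers summed to 217 to 255 CPM in old and 144 to 223 CPM in young libraries, and Kdr and Cldn5 rose among 6 tested. Megakaryocyte and platelet markers summed to 891 to 983 CPM in old and 703 to 840 CPM in young libraries, where 1 of 9 tested rose, Vwf. The immediate early genes, a rapid response to stimulation, summed to 4320 to 4841 CPM in old and 513 to 626 CPM in young libraries, and 17 of 18 rose. The results below were measured in libraries that differ in these ways, and the part of these differences in them was not tested. The old libraries carry the numbers 28, 29 and 30 in their titles and the young ones 1, 5 and 24, so that any step that followed these numbers cannot be told apart from age.

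Neo1 encodes neogenin, a receptor of netrins and of repulsive guidance molecules (RGMs), and lies on chromosome 9 from 58874687 to 59036441 on the minus strand (GRCm38). It stood at 96.4, 103 and 129 CPM in old replicates 1, 2 and 3, against 18.2, 32.7 and 33.7 CPM in young replicates 1, 2 and 3. Every old library was above every young one, and young replicate 1 was the lowest of all. The log2 fold change was 1.95 ± 0.23 SE (95% interval 1.45 to 2.45, adjusted p = 0.00061, edgeR), the 55th smallest p of the 14288 genes tested. Without young replicate 1 the log2 value was 1.72, and across all 15 alternatives in scaling, filter, test and libraries it ran from 1.72 to 2.10 and stayed called, with a highest adjusted p of 0.0055. In bulk RNA of a sorted population, a larger share of cells with the transcript and more transcript per cell cannot be told apart. The gene is overlapped on the other strand by the antisense gene Gm47271, which was not analysed here. No source used here says whether the counting used strand.

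The promoter of Neo1 is shown because it belongs to the member that changed most, and that of Cxcr4 because it had the lowest fold change of the 8. RefSeq windows of 300 bases on GRCm38.p6 (250 before to 50 after a start site) were matched by symbol for 5 of the 8 members, with 2 windows for Adgrg1, while S1pr1, Selplg and Cdh2 had none. Capitals mark matches, on either strand, to 5 motifs: the AP-1 motif TGANTCA, the CRE motif TGACGTCA, the Egr core GTGGGNG, the GATA motif AGATAA and the Sp/Klf motif GGGCGG. Each line gives the strand of the gene, 5′ to 3′.
Neo1 promoter, chr9:59036392-59036691, minus strand: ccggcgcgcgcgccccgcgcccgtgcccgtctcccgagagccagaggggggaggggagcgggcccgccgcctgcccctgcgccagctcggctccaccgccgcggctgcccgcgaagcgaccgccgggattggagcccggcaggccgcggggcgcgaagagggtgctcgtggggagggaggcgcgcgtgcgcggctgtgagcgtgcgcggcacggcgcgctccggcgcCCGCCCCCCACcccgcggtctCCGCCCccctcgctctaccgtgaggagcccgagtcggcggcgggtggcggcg
Cxcr4 promoter, chr1:128592250-128592549, minus strand: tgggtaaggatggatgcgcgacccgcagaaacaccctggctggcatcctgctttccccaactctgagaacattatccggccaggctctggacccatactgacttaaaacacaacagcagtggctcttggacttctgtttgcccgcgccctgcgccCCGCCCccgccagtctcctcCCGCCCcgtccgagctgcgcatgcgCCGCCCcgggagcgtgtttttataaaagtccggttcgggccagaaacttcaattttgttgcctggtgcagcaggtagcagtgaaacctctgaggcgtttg
Adgrg1 second promoter, chr8:94984149-94984448, plus strand: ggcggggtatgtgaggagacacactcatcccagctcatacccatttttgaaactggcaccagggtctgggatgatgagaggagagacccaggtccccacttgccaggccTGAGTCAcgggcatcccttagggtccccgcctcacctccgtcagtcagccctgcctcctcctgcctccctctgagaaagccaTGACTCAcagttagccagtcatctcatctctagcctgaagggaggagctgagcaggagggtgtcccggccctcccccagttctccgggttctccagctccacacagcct
The Neo1 window held 82.7% G and C and 54 CpG dinucleotides, against medians of 52.7% and 7 over the 32851 windows of this length. It contained 2 Sp/Klf matches, at bases 228 to 233 and 249 to 254, and 1 Egr core match at bases 232 to 238 that overlaps the first of them, counted from 1 at the 5′ end of the window. The Cxcr4 window, with 59.3% G and C and 20 CpG dinucleotides, held 3 Sp/Klf matches at bases 156 to 161, 176 to 181 and 201 to 206 and none of the other motifs. Sp/Klf matches were found in 35.7% and Egr core matches in 31.6% of all windows. Among the other members, the Cd44 window held 1 match to each of these 2 motifs. The first Adgrg1 window held 4 Egr core matches. The AP-1 motif, found in 7.81% of all windows, occurred among the members only in the second Adgrg1 window, shown for that reason, at bases 110 to 116 and 192 to 198. That window follows a RefSeq start 9648 bases downstream of the gene start in the GENCODE annotation. The CRE motif was in 1.79% of windows and in none of the members' windows, the GATA motif in 11.2% of windows and in that of Cd44. The Robo4 window held no match to any of the 5.

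Robo4, a roundabout receptor of endothelium and HSCs, lies on chromosome 9 from 37401897 to 37415115. It stood at 37.3, 31.9 and 35.4 CPM in old replicates 1 to 3, against 27.1, 25.5 and 32.6 CPM in young replicates 1 to 3. Young replicate 3 lay above old replicate 2, so the groups overlapped. The log2 fold change of 0.29 ± 0.19 SE did not pass (95% interval −0.12 to 0.71, adjusted p = 0.504, edgeR), and its interval takes in values on both sides of 0. Neo1 counts per Robo4 count, a ratio that needs no scaling of libraries, were 2.59, 3.23 and 3.64 in old replicates 1 to 3, against 0.673, 1.28 and 1.03 in young replicates 1 to 3 (two-sided exact permutation p = 0.1, the smallest that 3 against 3 allows). The pair was chosen after its values were seen.

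Cxcr4, the CXCL12 receptor on chromosome 1 from 128588199 to 128592293, was the member with the lowest fold change. It stood at 41.8, 31.5 and 42.1 CPM in old replicates 1 to 3, against 58.8, 61.1 and 41.0 CPM in young replicates 1 to 3. The young library 3 lay inside the range of the old libraries, and the other young libraries lay above it. Its log2 fold change of −0.48 ± 0.20 SE did not pass (95% interval −0.92 to −0.04, before adjustment over genes). The edgeR fit over all genes gave an adjusted p of 0.261. It was below 0 in all 15 alternatives, from −0.64 without young replicate 3 to −0.35 without old replicate 2, and passed in none of them, with a lowest adjusted p of 0.12. Macrophages, neutrophils and lymphocytes also express Cxcr4, and the part of these cells, whose summed markers are given above, was not tested. Of these sums, that of the neutrophil markers lay lower in all old libraries (19.9 to 23.5 CPM) than in all young ones (27.0 to 254 CPM). That of the T and NK cell markers lay higher in all old than in all young libraries. Those of the monocyte and macrophage and of the B and plasma cell markers overlapped. Klrb1c made up most of the T and NK cell sum in old libraries. Of the other 5 tested, Cd4, Cd8a, Il7r and Nkg7 averaged lower and Cd3d higher in old mice, and none passed.

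S1pr1, a receptor of sphingosine-1-phosphate on chromosome 3 from 115710433 to 115715072, was the other receptor that rose. It stood at 44, 55.4 and 60.0 CPM in old replicates 1 to 3, against 29.3, 21.4 and 28.3 CPM in young replicates 1 to 3. Every old library was above every young one, and each group spread by less than the gap between their means. The log2 fold change was 1.01 ± 0.20 SE (95% interval 0.58 to 1.45, adjusted p = 0.014, edgeR). The call was lost without old replicate 2 (log2 0.99, adjusted p = 0.0593) and without old replicate 3 (log2 0.93, adjusted p = 0.0844), and the value ran from 0.89 to 1.14 over the 15 alternatives. Without young replicate 2, whose title and description carry different library numbers, S1pr1 had a log2 value of 0.89 (adjusted p = 0.0499) while Neo1 stayed called with a log2 value of 2.07.

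**Figure D2:**
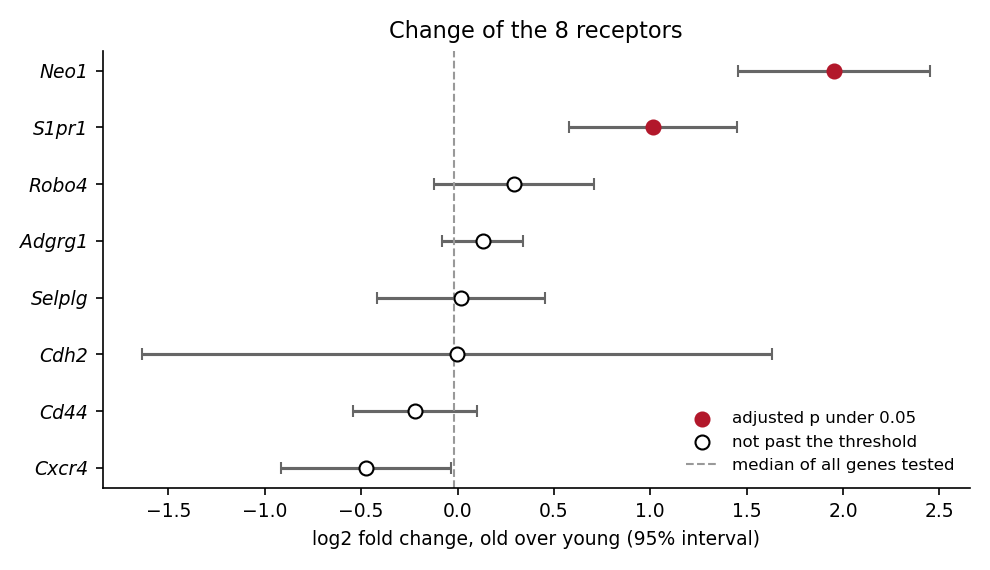
Log2 fold change, old over young, of the 8 receptors with 95% intervals of the fit over all genes, before adjustment for many genes. Filled points passed an adjusted p of 0.05, and the dashed line is the median of all genes tested (−0.02). Neo1 and S1pr1 lie to the right of the rest, and the Cdh2 interval is the widest.

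Endothelial cells also express S1pr1 and Robo4. Among the endothelial markers, Kdr averaged 38.1 ± 12.4 CPM in old and 5.53 ± 1.87 CPM in young mice and Cldn5 15.6 ± 6.04 CPM in old and 0.826 ± 0.215 CPM in young mice (SD, n = 3, adjusted p = 0.000671 and 0.000314, edgeR). The other 4 tested did not pass, among them Pecam1 with 70.2 ± 9.07 CPM in old and 63.2 ± 27.1 CPM in young mice. Of these 4, Pecam1 and Emcn averaged higher and Tie1 and Egfl7 lower in old mice, and the groups overlapped for each. The endothelial markers Plvap and Stab2 averaged under 1 CPM in both groups. The part of endothelial cells in the S1pr1 and Robo4 values was not tested.

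S1pr1 counts per Cxcr4 count were 1.05, 1.76 and 1.43 in old replicates 1 to 3, against 0.497, 0.35 and 0.689 in young replicates 1 to 3. Neo1 counts per Cxcr4 count were 2.31, 3.27 and 3.06 in old replicates 1 to 3, against 0.309, 0.536 and 0.821 in young replicates 1 to 3. Every old library thus held more S1pr1 and more Neo1 than Cxcr4 counts, and every young library held fewer. For both ratios the two-sided exact permutation p was 0.1, the smallest these groups allow, and these pairs too were chosen after their values were seen. Raw counts of different genes also depend on transcript length, so these ratios compare libraries and not receptors.

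Adgrg1 (GPR56), an adhesion G protein-coupled receptor that signals through G12 and G13, lies on chromosome 8 from 94974751 to 95014217. It stood at 1449, 1511 and 1636 CPM in old replicates 1 to 3, against 1324, 1554 and 1321 CPM in young replicates 1 to 3. Its mean level over the libraries ranked 42nd of the 14288 genes tested, and the groups overlapped. Its log2 fold change of 0.13 ± 0.10 SE did not pass (95% interval −0.08 to 0.34, adjusted p = 0.574, edgeR), and its interval was the narrowest of the 8.

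Cd44, the hyaluronan receptor on chromosome 2 from 102811141 to 102901665, stood at 151, 185 and 165 CPM in old replicates 1 to 3, against 232, 193 and 158 CPM in young replicates 1 to 3. Young replicate 1 was the highest and the groups overlapped. Its log2 fold change of −0.22 ± 0.15 SE did not pass (95% interval −0.54 to 0.10, adjusted p = 0.529, edgeR). Selplg, which encodes the selectin ligand PSGL-1, lies on chromosome 5 from 113818536 to 113832644. It stood at 31.2, 39.7 and 33.1 CPM in old replicates 1 to 3, against 28.5, 33.8 and 40.2 CPM in young replicates 1 to 3. These ranges lay almost on top of each other, with a log2 fold change of 0.02 ± 0.20 SE (95% interval −0.42 to 0.45, adjusted p = 0.981, edgeR). Both genes are also expressed by macrophages and neutrophils, several of whose markers were lower in old libraries, and the part of these cells was not tested.

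Cdh2, N-cadherin, a homophilic adhesion protein whose presence on HSCs has been disputed, lies on chromosome 18 from 16588877 to 16809246. It had 35, 27 and 4 counts in old replicates 1 to 3, against 33, 30 and 37 counts in young replicates 1 to 3. In CPM this was 1.48, 2.26 and 0.183 in old and 1.56, 1.18 and 1.13 in young replicates 1 to 3. The 4 counts of old replicate 3 have an exact 95% Poisson interval of 0.0499 to 0.469 CPM, below the interval of 0.796 to 1.56 CPM of young replicate 3, and such intervals cover counting error only. The old group therefore held both the highest and the lowest library. The log2 fold change was −0.0016 ± 0.75 SE (95% interval −1.64 to 1.63, adjusted p > 0.99), and without old replicate 3 it was 0.54 ± 0.70 SE (adjusted p = 0.852, edgeR). The Poisson interval of old replicate 3 also lay below those of the other old replicates, of 1.03 to 2.05 and 1.49 to 3.30 CPM. Stromal markers, of which 8 of 10 had values, summed to 15.4 to 22.7 CPM in old and 17.3 to 23.4 CPM in young libraries. Old replicate 3 had the lowest sum of all 6 libraries, and young replicate 3, with 1.13 CPM of Cdh2, had the next lowest (17.3 CPM). The stromal markers of old replicate 3 differed in direction. Its Pdgfrb, at 4.53 CPM, was the lowest of the 6 libraries, and its Cxcl12, at 0.504 CPM and below the filter, was the highest. The part of stromal cells in the Cdh2 values was not tested. The antisense gene Gm15485 overlaps Cdh2 and was not analysed here.

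**Figure D3:**
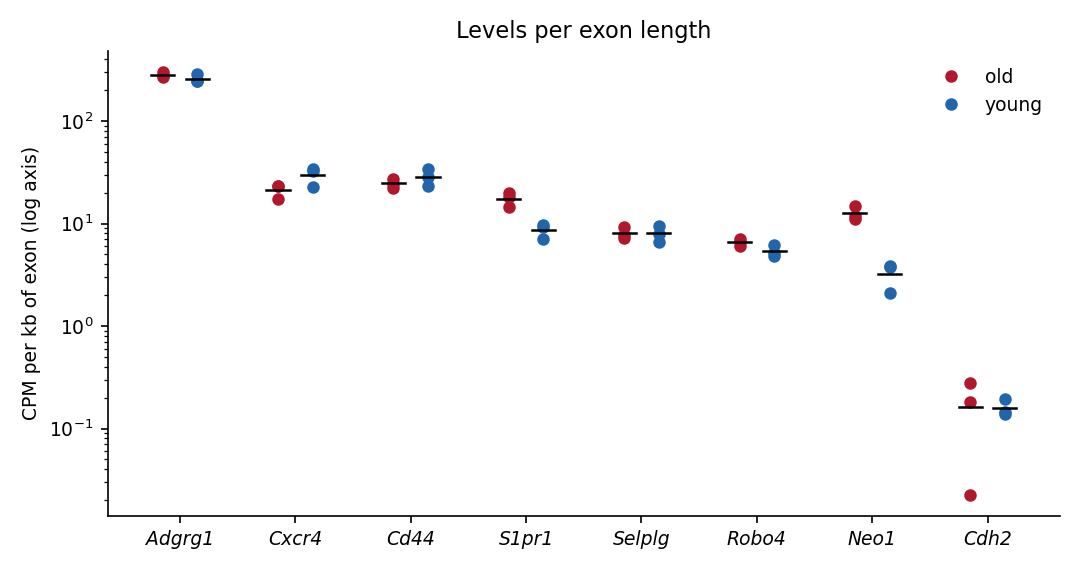
CPM per kilobase of exon (log axis) of the 8 receptors in the old (red, left of each pair) and young (blue, right) libraries, with the mean as a bar. Adgrg1 stood highest and Cdh2 lowest in both groups, and Neo1 stood at 12.6 in old and 3.24 in young mice.

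To compare the receptors with each other, levels were divided by the summed exon length of each gene in GENCODE M21, from 1.81 kilobases for Cxcr4 to 8.72 kilobases for Neo1. In old mice the order by CPM per kilobase was Adgrg1 (283 ± 17.6), Cd44 (24.6 ± 2.46), Cxcr4 (21.3 ± 3.32), S1pr1 (17.4 ± 2.71), Neo1 (12.6 ± 1.96), Selplg (8.11 ± 1.04), Robo4 (6.57 ± 0.518) and Cdh2 (0.162 ± 0.13; SD, n = 3). In young mice it was Adgrg1 (258 ± 24.7), Cxcr4 (29.7 ± 6.09), Cd44 (28.7 ± 5.44), S1pr1 (8.63 ± 1.41), Selplg (8.00 ± 1.37), Robo4 (5.36 ± 0.703), Neo1 (3.24 ± 0.996) and Cdh2 (0.16 ± 0.0295; SD, n = 3). Neo1 stood above Selplg and Robo4 in old mice and below both in young mice. In old mice the ranges of Cd44 and Cxcr4, of Cxcr4 and S1pr1, and of S1pr1 and Neo1 overlapped, so their order is not fixed beyond the spread of libraries. In young mice Cxcr4 overlapped Cd44, and S1pr1 overlapped Selplg. Exon lengths pool all annotated transcripts of a gene, from 1 for S1pr1 to 16 for Adgrg1, and which of them were present was not measured.

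The genes whose profiles over the 6 libraries lay nearest to the called receptors were found among 9253 other protein-coding genes with a mean of at least 10 CPM, as the root mean square distance of log2 CPM after each gene was centred on its mean. For Neo1 they were Tmem47 (distance 0.183) and Bmp4 (0.199), a bone morphogenetic protein. Bmp4 averaged 26.3 ± 2.42 CPM in old and 6.22 ± 2.63 CPM in young mice (SD, n = 3, adjusted p = 0.00463, edgeR). Tmem47, a membrane protein of cell junctions, averaged 23.9 ± 3.15 CPM in old and 6.22 ± 1.23 CPM in young mice (SD, n = 3, adjusted p = 0.00191, edgeR). For S1pr1 they were Fbxo30 (0.0992), an F-box protein with an adjusted p of 0.0158, and Isca1 (0.0993), an iron-sulfur cluster assembly protein with an adjusted p of 0.00916 (edgeR). The Fbxo30 call was lost without old replicate 2 (adjusted p = 0.0763), old replicate 3 (0.0804) or young replicate 2 (0.051), and the Isca1 call without old replicate 3 (0.0638). The distances were taken over the same 6 libraries that gave the fold changes, so they are a description.

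The following genes for ligands and ligand synthesis were at low levels in the sorted cells. Cxcl12 had 9, 1 and 11 counts in old replicates 1 to 3, against 2, 2 and 6 counts in young replicates 1 to 3, and was below the filter. Ntn1, which encodes netrin-1, averaged 0.229 ± 0.285 CPM in old and 0.484 ± 0.343 CPM in young mice (SD, n = 3, adjusted p = 0.717, edgeR). Another netrin gene, Ntn4, stood higher, at 12.4 ± 2.55 CPM in old and 8.82 ± 2.50 CPM in young mice (SD, n = 3). It did not pass (adjusted p = 0.505, edgeR). Slit2 averaged 6.35 ± 2.47 CPM in old and 6.43 ± 2.19 CPM in young mice (SD, n = 3), and Rgmb, an RGM, 6.15 ± 2.03 CPM in old and 4.64 ± 0.846 CPM in young mice. Neither passed (adjusted p = 0.996 and 0.704, edgeR). Has1 and Has2, hyaluronan synthases, stood under 1 CPM in every library, and Has3 averaged 3.8 ± 1.24 CPM in old and 2.69 ± 2.10 CPM in young mice (SD, n = 3). Ackr3, the other CXCL12 receptor, Sele, Slit1, Robo2, Dcc, Rgma and Cdh5 were not found by symbol among the 16312 genes of the counts, so they have no values here.

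Selp encodes P-selectin, the main binding partner of PSGL-1, and stood at 171, 246 and 267 CPM in old replicates 1 to 3, against 23.5, 20.1 and 33.0 CPM in young replicates 1 to 3. Its log2 fold change was 3.16 ± 0.22 SE (adjusted p = 9.3e-06, edgeR), while Selplg itself stood at 34.7 ± 4.45 CPM in old and 34.2 ± 5.84 CPM in young mice (SD, n = 3). St3gal6, a sialyltransferase that builds selectin ligands, rose by 1.66 ± 0.31 SE, a call lost without old replicate 3 (adjusted p = 0.0552), and the P-selectin ligand gene Cd24a rose by 0.55 ± 0.11 SE. The Cd24a call was lost in 4 of 6 fits with 1 library left out, those without old replicate 2 (adjusted p = 0.0948), old replicate 3 (0.0881), young replicate 2 (0.0788) and young replicate 3 (0.0525). Of 16 tested genes of selectins and selectin ligand synthesis, 3 rose and none fell, with a median log2 fold change of 0.21. Platelets and endothelium also express Selp, and Vwf, a marker of both, averaged 206 ± 36.5 CPM in old and 38.3 ± 15.2 CPM in young mice (SD, n = 3, adjusted p = 0.000357, edgeR), while Pf4, a platelet gene, averaged 20.0 ± 0.344 CPM in old and 31.6 ± 3.82 CPM in young mice and did not pass. The part of such cells in the Selp values was not tested.

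Over 10 lists of ligands, signalling partners and other anchoring genes, 132 genes were tested and 14 were called (10.6%, beside 3.99% of all genes tested). Of these 13 rose and 1 fell, and the median log2 fold change over the 132 genes was 0.04. The lists were written with earlier results of these data known, and Selp was among those results, so the share is a description. With 1 library left out, between 9 and 14 rose.

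**Figure D4:**
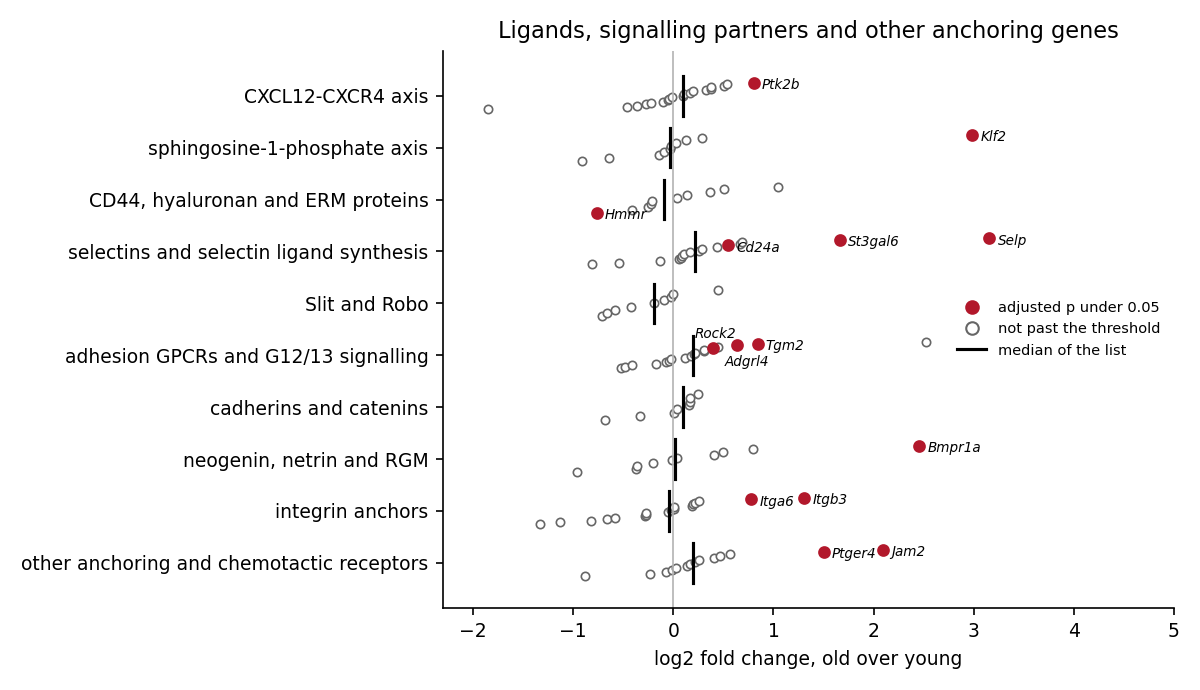
Log2 fold change, old over young, of the tested genes of 10 partner lists, 1 point per gene, spread vertically within a list. Filled points passed an adjusted p of 0.05 and are named, and the bar is the list's median. Called genes lie to the right of 0 except Hmmr.

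For neogenin, 1 of 10 tested partners rose and none fell, with a median log2 value of 0.01. It was Bmpr1a, a type I receptor of bone morphogenetic proteins, for which RGMs act as co-receptors and neogenin as an RGM receptor. It stood at 71.0, 99.7 and 121 CPM in old replicates 1 to 3, against 21.6, 19.8 and 12.0 CPM in young replicates 1 to 3, without overlap. Bmpr1a rose by a log2 value of 2.46 ± 0.26 SE (adjusted p = 0.000341, edgeR). Unc5a, another netrin receptor, averaged 14.5 ± 7.57 CPM in old and 8.33 ± 1.19 CPM in young mice (SD, n = 3) and did not pass (adjusted p = 0.303). In the Slit and Robo list none of 9 tested genes passed, and 1 of them had an unadjusted p under 0.05. That was Srgap2, a GTPase-activating protein of the Slit pathway, with 44.1 ± 5.96 CPM in old and 66.2 ± 5.13 CPM in young mice (SD, n = 3, adjusted p = 0.0735, edgeR, and 0.0119 with DESeq2). Enah, a regulator of actin, followed with an adjusted p of 0.351. Robo1 averaged 6.78 ± 1.97 CPM in old and 9.04 ± 3.27 CPM in young mice, and Robo3 3.95 ± 1.03 CPM in old and 4.01 ± 1.46 CPM in young mice (SD, n = 3).

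For the CXCL12 axis, 1 of 19 tested genes rose and none fell, with a median log2 value of 0.10. It was Ptk2b, which encodes the focal adhesion kinase relative PYK2 and averaged 126 ± 25.5 CPM in old and 72.0 ± 5.37 CPM in young mice (SD, n = 3). Its log2 fold change of 0.80 ± 0.16 SE (adjusted p = 0.014, edgeR) shrank to 0.63 without old replicate 3, where the call was lost (adjusted p = 0.0852). Gnai3, a subunit of the inhibitory G proteins to which Cxcr4 couples, had a log2 fold change of 0.38 ± 0.11 SE that did not pass (adjusted p = 0.088, edgeR, and 0.0321 with DESeq2).

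Of 10 tested genes of the sphingosine-1-phosphate axis, 1 rose and none fell, with a median log2 value of −0.03. It was Klf2, a transcription factor known in mouse T cells to drive S1pr1. Klf2 stood at 51.2, 30.1 and 35.9 CPM in old replicates 1 to 3, against 9.96, 2.98 and 2.05 CPM in young replicates 1 to 3. All old libraries were above all young ones, and young replicate 1 was the highest of its group. Klf2 rose by a log2 value of 2.99 ± 0.50 SE (adjusted p = 0.00587, edgeR) and 3.96 without young replicate 1. The immediate early genes rose in the same libraries, by a median of 3.20 on the log2 scale, and their part in the Klf2 and S1pr1 values was not tested. The other receptors of the family that were tested did not pass. S1pr4 averaged 21.1 ± 2.21 CPM in old and 17.3 ± 2.28 CPM in young mice, S1pr2 11.1 ± 0.607 CPM in old and 12.3 ± 0.701 CPM in young mice, and S1pr3 2.28 ± 1.13 CPM in old and 3.52 ± 1.78 CPM in young mice (SD, n = 3). Their adjusted p-values were 0.604, 0.85 and 0.656 (edgeR), S1pr5 was below the filter, and the difference between S1pr1 and these receptors was not tested. Mfsd2b, a sphingosine-1-phosphate exporter of red cells and platelets, had a log2 fold change of −0.91 ± 0.29 SE that did not pass (adjusted p = 0.122, edgeR, and 0.0418 with DESeq2).

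Around Adgrg1, 3 of 18 tested genes rose and none fell, with a median log2 value of 0.19. Tgm2, a transglutaminase that binds the Adgrg1 protein, averaged 333 ± 27.5 CPM in old and 186 ± 10.9 CPM in young mice (SD, n = 3, log2 fold change 0.84 ± 0.11 SE, adjusted p = 0.00115, edgeR). Adgrl4, another adhesion G protein-coupled receptor, averaged 1406 ± 136 CPM in old and 904 ± 60.8 CPM in young mice (SD, n = 3, log2 fold change 0.64 ± 0.10 SE, adjusted p = 0.00383, edgeR). Rock2, a kinase of the actin cytoskeleton, rose by 0.40 ± 0.09 SE (adjusted p = 0.0296, edgeR), and its call was lost without any 1 old library (highest adjusted p = 0.163) and without young replicate 2 (0.11) or 3 (0.0606).

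For Cd44, 1 of 10 tested partners fell and none rose, with a median log2 value of −0.09. It was Hmmr, a hyaluronan receptor that also binds the mitotic spindle, with 86.6 ± 12.0 CPM in old and 147 ± 23.5 CPM in young mice (SD, n = 3). Its log2 fold change of −0.77 ± 0.16 SE (adjusted p = 0.017, edgeR) lost its call without any 1 old library (adjusted p = 0.0559, 0.0569 and 0.111 for replicates 1, 2 and 3) and without young replicate 1 (0.0522). Mmp14, a membrane protease that cleaves Cd44, averaged 38.2 ± 10.2 CPM in old and 18.4 ± 5.34 CPM in young mice (SD, n = 3) and narrowly missed the threshold (adjusted p = 0.0516, edgeR). It passed with DESeq2 (adjusted p = 0.00302), and with edgeR under the stricter filter (0.0313) and without young replicate 2 (0.0312). None of 8 tested cadherin and catenin genes passed, the smallest p being those of Cdh11 (log2 −0.34, adjusted p = 0.172) and the catenin gene Ctnnd1 (log2 0.25, adjusted p = 0.32). Cdh1 stood under 1 CPM in every library.

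Of 18 tested integrin genes and their activators, 2 rose and none fell, with a median log2 value of −0.04. Itga6, a laminin receptor subunit, averaged 405 ± 27.3 CPM in old and 236 ± 31.0 CPM in young mice, and Itgb3, a subunit of the vitronectin and fibrinogen receptors, 337 ± 31.5 CPM in old and 136 ± 45.5 CPM in young mice (SD, n = 3, adjusted p = 0.00342 and 0.00472, edgeR). Among 14 other anchoring and chemotactic receptors, 2 rose and none fell, with a median of 0.19. Ptger4, a prostaglandin E2 receptor, averaged 96.9 ± 8.39 CPM in old and 34.2 ± 1.56 CPM in young mice (SD, n = 3, adjusted p = 0.000195, edgeR). Jam2, a junctional adhesion molecule that endothelium also expresses, averaged 186 ± 64.9 CPM in old and 43.5 ± 7.13 CPM in young mice (SD, n = 3, adjusted p = 0.000387, edgeR).

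The authors' deposited table gives its log2 fold changes as young over old, so that a negative value means higher in old mice. In the authors' deposited table Neo1 had −1.86 (adjusted p = 8.44e-13) and S1pr1 −0.93 (adjusted p = 0.000257). The authors' deposited table gives Cxcr4 0.50, Robo4 −0.44 and Selplg −0.29, with adjusted p of 0.166, 0.219 and 0.655. For Adgrg1, Cd44 and Cdh2 it gives 0.014, 0.13 and −0.00079, with adjusted p of 0.983, 0.825 and 0.9996. The direction for Adgrg1 and Cdh2, near 0 there, was opposite to that of the edgeR fit. Thus the same 2 receptors passed in both. The base means of the authors' deposited table for Neo1 and Selplg were 5.5% and 3.07% above those computed from the deposited counts and size factors, and the cause of this gap was not tested.

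**Figure D5:**
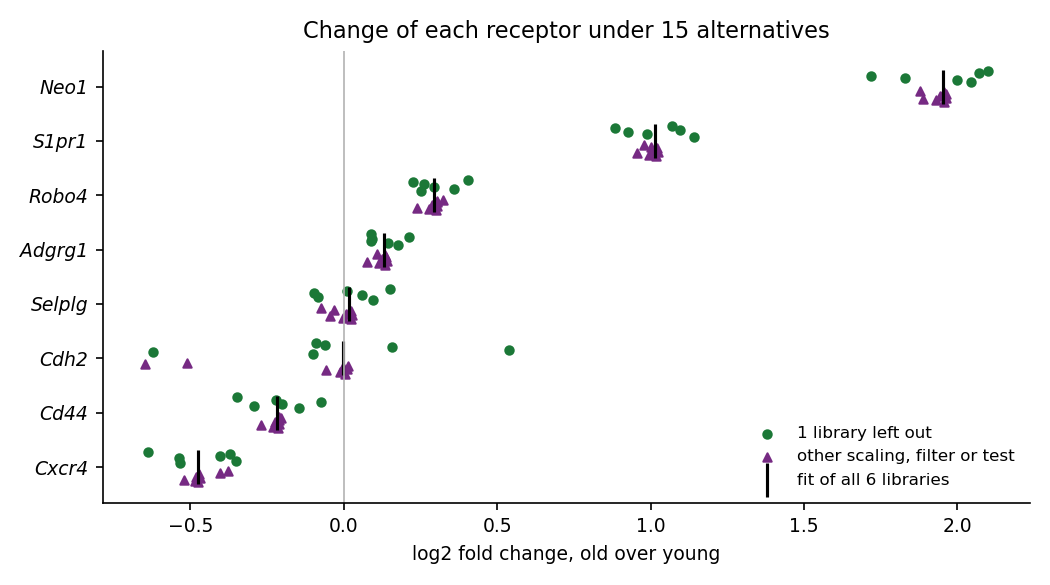
Log2 fold change, old over young, of each receptor in the fit of all 6 libraries (bar), with 1 library left out (circles) and with another scaling, filter or test (triangles). Neo1 and S1pr1 stayed above 0, with ranges of 1.72 to 2.10 and 0.89 to 1.14, Cxcr4 stayed below 0, and Selplg and Cdh2 had values on both sides.

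Libraries of 1 group differed least for Adgrg1, whose highest library was 1.13 times the lowest in old and 1.18 times in young mice. They differed most for Cdh2 in old mice, at 12.4 times, and for Neo1 in young mice, at 1.85 times. In the other age, that ratio was 1.34 for Neo1 in old mice and 1.38 for Cdh2 in young mice.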

How the data were processed

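Per the labels' protocols, RNA of sorted HSCs was isolated with a PicoPure kit and made into low-input libraries, and single-end sequencing read 50 bases. Salmon, DESeq2, FastQC, MultiQC and GRCm38 appear in the submitters' processing notes without versions or roles. The authors' deposited estimated counts were whole numbers for 16312 genes. The authors also deposited a table comparing the ages, which holds base means (normalised signal), log2 fold changes with standard errors, a test score, and p-values.

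Identifiers, without version, were matched to GENCODE M21 (GRCm38), which named 16301 genes. The fits used edgeR 4.0.16 in R 4.3.3: the default filter (minimum count 10, minimum total 15) left 14288 genes, libraries were scaled by TMM (factors 0.955 to 1.06), and the quasi-likelihood F test was adjusted by Benjamini-Hochberg with a threshold of 0.05. SE is the log2 value over the root of F, and 95% intervals use the test's degrees of freedom. DESeq2 1.42.0 and limma 3.58.1 were alternatives. The method was tested on counts simulated with the dispersions fitted to these data. That test draws counts from the model that the fit assumes, so it cannot show whether these data follow that model. It also cannot speak to changes of weakly expressed genes or to differences in cell mixture. Chi-square per degree of freedom between libraries ran from 20.5 to 77.6 over 15 pairs, and none looked like a repeated deposit. Replicate numbers follow sample order.

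The members and lists were chosen with earlier results of these data known. Named were all members, their ligands and close relatives, called partner genes, the 2 smallest p per partner list, markers, and the 2 nearest profiles per called member. Other names were chosen after their values were seen. No set test was run. 1 gene of the partner lists is not reported here.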

Additional observations from a re-analysis of the deposited data

How the results depend on the processing

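No paired analysis was possible because the labels give no pairing of old with young mice, and the 2 ages share no library numbers in the titles. Of 15 alternatives, all kept the direction and side of the threshold of Neo1, Robo4, Cxcr4, Adgrg1 and Cd44, and S1pr1 lost its call in 2 fits with 1 old library left out, where its log2 value over all 6 such fits ran from 0.89 to 1.14. Selplg, near 0, turned negative with upper quartile scaling (−0.0039), library size alone (−0.046), limma-voom (−0.031) and limma-voom with quality weights (−0.073), and ran from −0.097 to 0.15 with 1 library left out. Cdh2 turned positive with relative log expression scaling (0.0035), no filter (0.011) and DESeq2 (0.013), ran from −0.62 to 0.54 with 1 library left out, and was below the stricter filter of 50 counts. The cause was not tested.

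Changed genes numbered 570 (350 higher, 220 lower) and 1146 with DESeq2 (652 higher, 494 lower), and with 1 library left out 245 to 473 (166 to 308 higher, 79 to 167 lower), where fewer samples were fitted. Partner genes called lower numbered 1, 7 with DESeq2, and 0 to 2 with 1 library left out, and those called higher 13, and 9 to 18 over all alternatives. Of 55 other called genes fitted beside the members, 36 kept their call in every alternative. Cdh2 had 4 to 37 counts per library and Cxcl12 had 1 to 11, so that counting error alone is wide for both. The design of 3 against 3 cannot give an exact permutation p under 0.1.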

Other observations

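Itga4 and Itgb1 encode the subunits of the integrin VLA-4, which binds VCAM-1 in homing, and were picked after their values were seen. Itga4 averaged 540 ± 70.6 CPM in old and 657 ± 12.7 CPM in young mice (log2 −0.28, adjusted p = 0.203, edgeR), and Itgb1 285 ± 7.03 CPM in old and 248 ± 18.8 CPM in young mice (log2 0.20, adjusted p = 0.38, edgeR; SD, n = 3). Neither passed the test. All old libraries lay below all young ones for Itga4, as for 10.8% of all genes tested, and above them for Itgb1, as for 11.6%.

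Dpp4, a protease that inactivates CXCL12, averaged 56.9 ± 10.8 CPM in old and 78.3 ± 4.16 CPM in young mice (SD, n = 3) and did not pass (log2 −0.46, adjusted p = 0.169, edgeR).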
